A study of Mus musculus with 57 samples.

Results

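Messenger RNA of 9 monocyte genes was followed in CD11b-positive cells of mouse brain. The 9 genes are Ly6c2, Ccr2, Plac8, Chil3, Vcan, Fn1, S100a4, Lyz2 and Ace. They were found by symbol in both deposited count tables, among 50565 genes in one table and 53278 in the other, and all 9 were abundant enough to be tested in each. CD11b is an integrin on microglia, monocytes, neutrophils and other myeloid cells, and the labels call the cells microglia.

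The cells came from adult wild-type (WT) mice and P2RY12-deficient (KO) littermates. P2RY12 is a nucleotide receptor that is abundant on microglia. The first table, called the sex experiment here, had WT libraries of 4 males and 4 females and KO libraries of 5 males and 5 females, and their sample labels put none of them in a treatment group. The second, called the LPS experiment, had 8 KO ns, 8 KO LPS, 8 WT ns and 9 WT LPS libraries by their labels. LPS stands for lipopolysaccharide, a molecule of the outer membrane of Gram-negative bacteria that sets off innate immune responses, and was given intraperitoneally at 1 mg/kg. The term ns is not defined in the labels and is used as written. The KO allele, the time after injection, and the sex of the animals in the LPS experiment are not given in the sources used here. The labels do not say that libraries of a group came from separate animals in the LPS experiment, so p-values measure the spread between libraries, which may be in part technical.

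Monocytes are made in bone marrow and circulate in blood. Classical monocytes carry Ly6C and the chemokine receptor CCR2 and leave the marrow towards CCR2 ligands such as CCL2. Nonclassical monocytes carry little Ly6C and patrol vessel walls. The healthy brain parenchyma holds few monocytes, which are found mainly in its vessels and borders, whereas microglia arise from yolk sac precursors and express little of these genes. Ly6c2 encodes a lipid-anchored surface protein of classical monocytes, and Ccr2 encodes the receptor that guides them. Plac8 encodes a small cysteine-rich protein, Chil3 the secreted chitinase-like protein Ym1, S100a4 a calcium-binding protein and Lyz2 the lysozyme of myeloid cells. Vcan encodes the proteoglycan versican and Fn1 encodes fibronectin, and both proteins belong to the extracellular matrix. Ace encodes angiotensin-converting enzyme, which among blood monocytes is higher in the nonclassical kind. Neutrophils, dendritic cells, border macrophages and lymphocytes express some of these genes too.

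Promoters are shown for the 4 genes in which a short purine-rich word, AGGAAGT, was found near the gene start, because several of these genes rose and fell together across libraries. Words of this kind, with a GGAA core, are bound by the ETS family of transcription factors, to which the myeloid factor PU.1 (Spi1) belongs. The sequences are from RefSeq on GRCm38.p6, run 5′ to 3′ on the strand of the gene, and span 250 bases before to 50 after the gene start. Capitals mark AGGAAGT or its reverse complement ACTTCCT.
Ly6c2, chr15:75111922-75112221, minus strand: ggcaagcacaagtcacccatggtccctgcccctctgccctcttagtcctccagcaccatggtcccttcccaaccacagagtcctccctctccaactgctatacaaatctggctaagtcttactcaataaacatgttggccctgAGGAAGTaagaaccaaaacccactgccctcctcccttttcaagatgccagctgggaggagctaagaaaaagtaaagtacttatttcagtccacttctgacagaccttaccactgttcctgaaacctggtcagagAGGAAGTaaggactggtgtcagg
Chil3, chr3:106167515-106167814, minus strand: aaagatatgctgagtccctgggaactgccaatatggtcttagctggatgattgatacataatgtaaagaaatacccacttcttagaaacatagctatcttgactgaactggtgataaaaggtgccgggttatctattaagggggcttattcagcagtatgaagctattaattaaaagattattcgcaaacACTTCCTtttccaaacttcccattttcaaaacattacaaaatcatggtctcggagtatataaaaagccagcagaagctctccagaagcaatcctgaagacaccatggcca
Lyz2, chr10:117282223-117282522, minus strand: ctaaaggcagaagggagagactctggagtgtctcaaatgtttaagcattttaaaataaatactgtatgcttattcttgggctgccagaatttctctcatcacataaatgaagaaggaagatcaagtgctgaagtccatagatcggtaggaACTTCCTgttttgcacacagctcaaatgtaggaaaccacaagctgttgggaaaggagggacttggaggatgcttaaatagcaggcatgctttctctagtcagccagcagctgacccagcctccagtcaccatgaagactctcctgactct
S100a4, chr3:90603520-90603819, plus strand: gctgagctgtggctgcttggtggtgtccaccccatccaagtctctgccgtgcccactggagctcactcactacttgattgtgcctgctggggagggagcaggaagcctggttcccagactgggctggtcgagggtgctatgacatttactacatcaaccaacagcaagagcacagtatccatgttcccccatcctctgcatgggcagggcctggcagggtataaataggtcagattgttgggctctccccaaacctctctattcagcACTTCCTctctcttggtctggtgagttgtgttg
The word began 107 bases before and again 27 bases after the start of Ly6c2. It began 60 bases before the start of Chil3, 100 bases before that of Lyz2 and 17 bases after that of S100a4. On either strand it was present in 4 of the 8 genes with a promoter entry, which had 11 promoters between them. Counted per promoter and not per gene, it was present in 3072 of all 32851 (9.35%), so the units differ. The word was chosen after these promoters had been read, and a match is a description of the letters only. Fn1 had no entry and was not shown.

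Several of these genes have close relatives with which short reads could be confused. The first 150 coding bases are shown for the pairs Ly6c2 and Ly6c1 and Lyz2 and Lyz1, with the bases that differ in capitals, because counts of these genes depend on such differences.
Ly6c2: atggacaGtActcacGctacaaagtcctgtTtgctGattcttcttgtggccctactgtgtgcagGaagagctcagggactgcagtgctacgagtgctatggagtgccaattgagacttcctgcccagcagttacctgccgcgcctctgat
Ly6c1: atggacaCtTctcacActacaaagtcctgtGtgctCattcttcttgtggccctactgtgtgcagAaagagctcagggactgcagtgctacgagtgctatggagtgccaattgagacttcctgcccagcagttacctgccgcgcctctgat
Lyz2: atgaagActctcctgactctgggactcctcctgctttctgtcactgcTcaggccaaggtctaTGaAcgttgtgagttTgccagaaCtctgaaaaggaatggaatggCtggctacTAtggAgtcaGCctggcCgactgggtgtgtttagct
Lyz1: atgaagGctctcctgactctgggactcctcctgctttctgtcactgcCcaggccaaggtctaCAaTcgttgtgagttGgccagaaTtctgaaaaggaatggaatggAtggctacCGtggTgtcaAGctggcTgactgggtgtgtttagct
Over the whole coding sequence, Ly6c2 and Ly6c1 differed at 9 of 396 bases, an identity of 97.7%. Ly6c1 is known as a gene of endothelial cells as well. Lyz2 and Lyz1 differed at 22 of 447 bases, an identity of 95.1%. Of all 50-base words in its transcript, Ly6c2 shared 33% with other genes, mainly Ly6c1, and Lyz2 shared 15.4% with Lyz1. Chil3 shared 29.4%, mainly with Chil4, and S100a4 shared 56.3% with the predicted gene Gm42674. Plac8, Vcan, Fn1 and Ace shared none. How such reads were assigned is not given in the sources used here, so levels of Ly6c2, Chil3, S100a4 and Lyz2 are uncertain to that extent. Ly6c1 reached at most 6.82 CPM, the count of a gene per mega of library counts,, Lyz1 14 CPM and Chil4 6.57 CPM in any library.

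On GRCm39, the build of the coordinates in the sex experiment, Ly6c2 spans bases 74980010 to 74983820 of chromosome 15 and Ccr2 bases 123901954 to 123913594 of chromosome 9. Chil3 spans bases 106054870 to 106074852 and S100a4 bases 90511077 to 90513349 of chromosome 3. Vcan spans bases 89803429 to 89891146 of chromosome 13, Fn1 bases 71624632 to 71692439 of chromosome 1, and Lyz2 bases 117113446 to 117118177 of chromosome 10. Plac8 spans bases 100699455 to 100720119 of chromosome 5 and Ace bases 105858774 to 105880790 of chromosome 11. The counted interval was the whole gene, introns included. The interval of Ace overlaps Gm11651 on the opposite strand, whose counts were 72.8% to 77.3% of those of Ace in every library of the sex experiment. The interval of Vcan overlaps Gm4117, with counts of 6.39% to 70.7% of those of Vcan, and Gm16318, with 0.327% to 12.2%. With the strand setting not given, reads of such pairs cannot be told apart.

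Depth was 58.5 to 319 M counts per library (M standing for mega) in the sex experiment and 15.9 to 168 M in the LPS experiment. P2ry12 was 3010 to 5930 CPM in WT and 309 to 526 CPM in KO libraries of the sex experiment, a log2 fold change of -3.42 ± 0.12 (SE). The summed CPM of microglia markers was 25600 to 42600 over 9 markers in the sex experiment and 17000 to 52700 over 10 in the LPS experiment. Fcrls is in the LPS sum only, so the 2 ranges are not the same measure. P2ry12 is among the markers of both sums. In the LPS experiment the WT libraries whose names end in number 2 went against their labels. P2ry12, which falls under LPS, was 481 CPM in the library labelled WT ns 1 and 927 CPM in that labelled WT ns 5, against 3520 to 5410 CPM in the other WT ns libraries. Saa3, an acute-phase gene, was 1780 and 2490 CPM there, against 1.52 to 64.3 CPM. P2ry12 was 4460 CPM and Saa3 1.59 CPM in the library labelled WT LPS 1, and they were 12200 and 3.21 CPM in that labelled WT LPS 6, against 400 to 1060 CPM of P2ry12 and 1420 to 9720 CPM of Saa3 in the other WT LPS libraries. These 4 libraries are shown apart, and the WT results of the 9 genes under LPS are given without and with them. WT LPS 8 and WT LPS 9 differed little beyond sampling noise, with a ratio of chi-square to degrees of freedom of 1.86, where the next closest pair of a group had 8.32, and were summed as 1 sample. Groups of the LPS experiment then held 6 WT ns, 6 WT LPS, 8 KO ns and 8 KO LPS samples. Levels are CPM scaled by the trimmed mean of M-values (TMM), a scaling that sets typical genes level between libraries.

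LPS was compared with ns within each genotype, which asks how the genes respond to LPS with and without P2RY12. Ccr2 was lower and Vcan was higher under LPS in both genotypes. Ly6c2 did not pass the test in either genotype. In KO cells 2 of the 9 genes were called at an adjusted p-value under 0.05 (edgeR quasi-likelihood test with Benjamini-Hochberg adjustment over all genes), 1 in each direction. Of all 16088 genes tested in that comparison 28.5% were called, 14.4% higher and 14.1% lower. In WT cells 2 of 9 were called as well, the same 2 genes in the same directions, where 30.7% of all genes were called, 15.5% higher and 15.2% lower. The members' share of calls was near the background. Their median log2 fold change was -0.32 in KO and 0.15 in WT, against 0.01 and 0.03 over all genes.

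**Figure D1:**
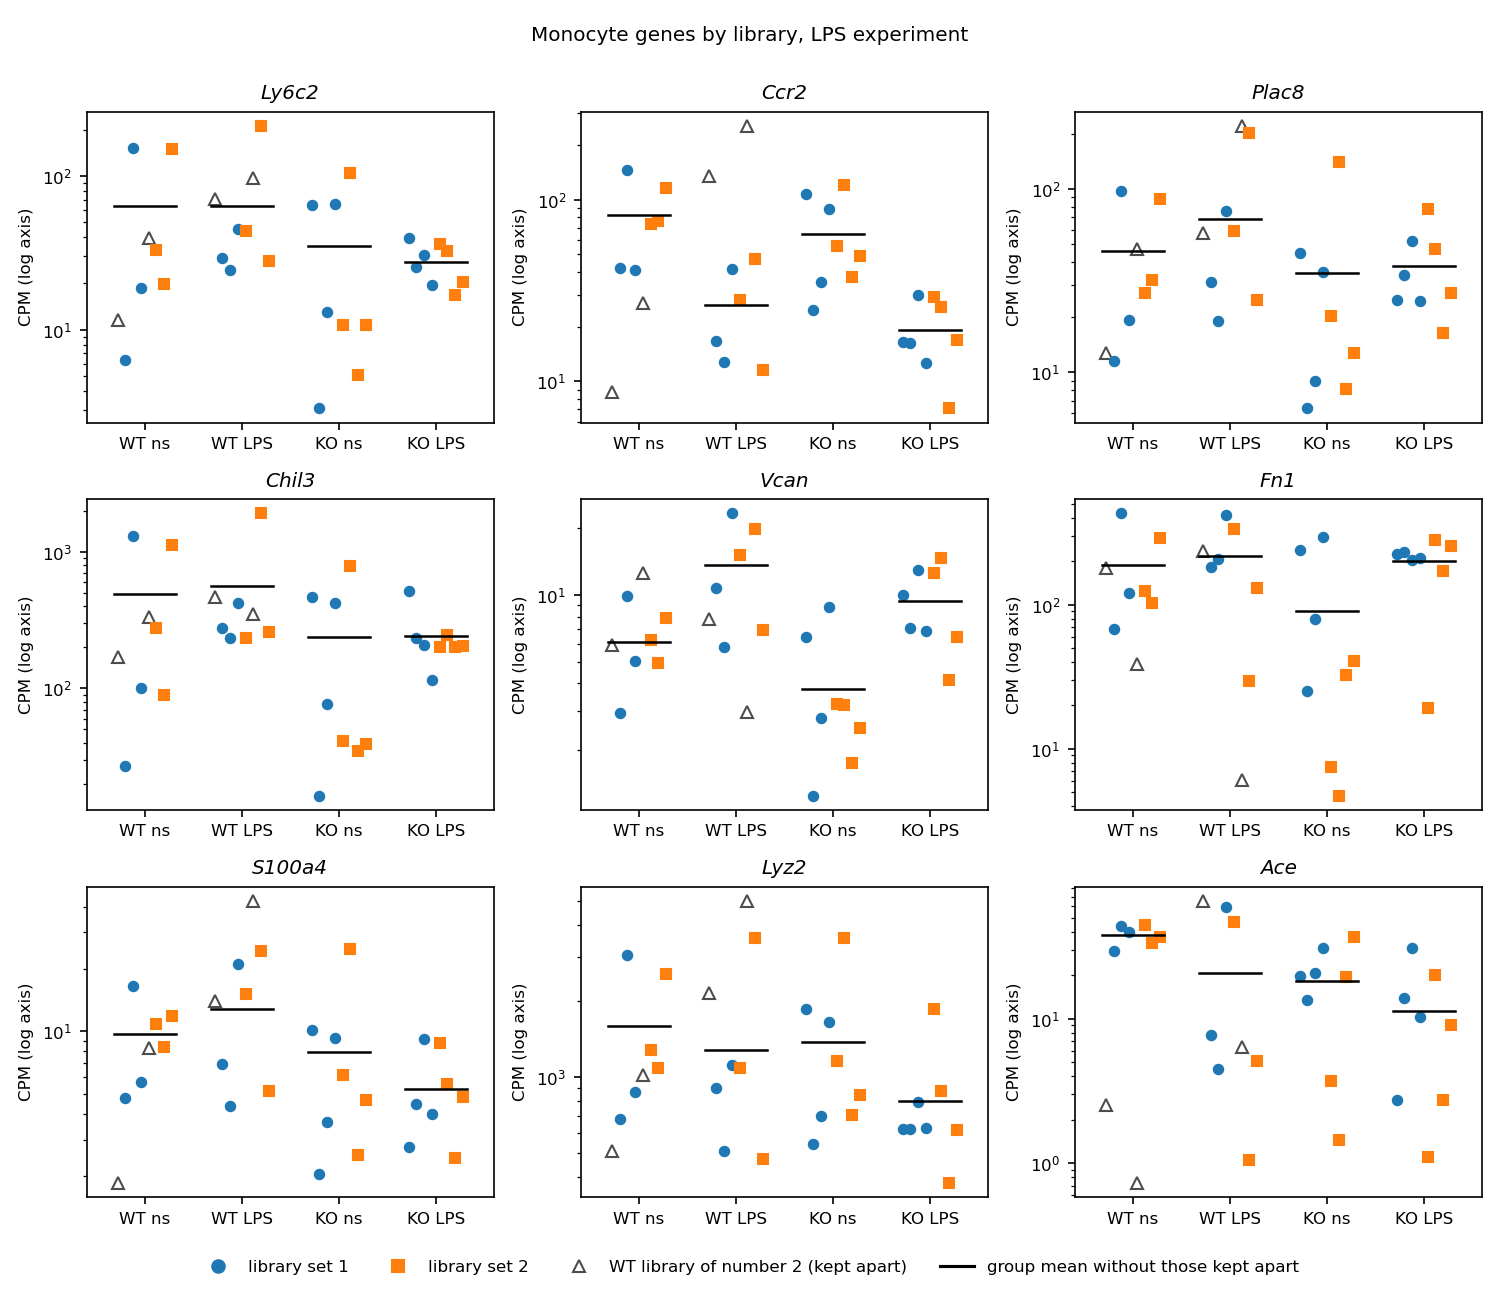
TMM-scaled CPM of the 9 genes (log axis) in each sample of the LPS experiment by labelled genotype and treatment, with circles for library set 1, squares for set 2, horizontal lines for group means and open triangles for the WT libraries of number 2. Ccr2 sits at 7.09 to 30 CPM in KO LPS and 24.8 to 121 CPM in KO ns, and the open triangles of Ccr2 lie on the side opposite to their labels.

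Ccr2, the receptor for CCL2, was the gene of the 9 that fell under LPS. In KO ns it ranged from 24.8 to 121 CPM with a median of 52.4, and in KO LPS from 7.09 to 30 CPM with a median of 16.6. The groups overlapped only where the lowest ns libraries met the highest LPS libraries. The means were 65 ± 36.1 CPM (SD, n = 8) and 19.2 ± 8.18 CPM (SD, n = 8), and the log2 fold change was -1.72 ± 0.393 (SE, edgeR adjusted p = 0.00137). In WT ns Ccr2 ranged from 40.8 to 145 CPM with a median of 74.9, and in WT LPS from 11.5 to 47.1 CPM with a median of 22.4. The change was -1.60 ± 0.452 (SE, edgeR adjusted p = 0.00831). The difference between genotypes in this response was -0.12 ± 0.583 (SE, edgeR adjusted p = 0.943), so no difference was detectable.

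The libraries of number 2 carried Ccr2 the other way round. It was 8.74 and 27 CPM in those labelled WT ns 1 and WT ns 5, and 135 and 255 CPM in those labelled WT LPS 1 and WT LPS 6. With all libraries as labelled, the WT change of Ccr2 was 0.03 ± 0.547 (SE, edgeR adjusted p = 0.98). No member and 0% of all genes were then called in WT, with 3605 genes at an unadjusted p under 0.05 and an adjusted p for Ccr2 that ran from 0.00117 to 0.98 over all alternatives. Library names place the pools in set 1 or set 2. Within set 1 alone the change of Ccr2 was -1.74 (adjusted p = 0.0455) in KO and -1.65 (adjusted p = 0.0942) in WT, and within set 2 alone it was -1.70 (adjusted p = 0.108) and -1.59 (adjusted p = 0.198). The size was thus similar in each set while the call was lost in 3 of these 4 smaller fits.

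Vcan, the gene of the matrix proteoglycan versican, rose under LPS. In KO ns it ranged from 1.25 to 8.87 CPM with a median of 2.99, and in KO LPS from 4.15 to 14.7 CPM with a median of 8.58. The ranges overlapped, and the log2 fold change was 1.38 ± 0.381 (SE, edgeR adjusted p = 0.00702). In WT ns it ranged from 2.94 to 9.85 CPM with a median of 5.68, and in WT LPS from 5.84 to 23.3 CPM with a median of 12.9. The change there was 1.19 ± 0.433 (SE, edgeR adjusted p = 0.038). As labelled it was 0.73 ± 0.392 (SE, adjusted p = 0.262). In WT the call was lost when any of WT ns 2, 4, 6 or 7 or WT LPS 4, 5 or 7 was left out, with changes of 0.94 to 1.31 over all such fits. Also in WT it was lost without the low-count filter (edgeR adjusted p = 0.058), with a filter at a mean of 5 CPM (adjusted p = 0.0554) and without libraries of number 2 in any group (adjusted p = 0.0512), and it ran from 0.0179 to 0.262 over all alternatives. Within set 1 the change was 0.95 in KO (adjusted p = 0.23) and 1.19 in WT (adjusted p = 0.197). Within set 2 it was 1.87 in KO (adjusted p = 0.0413) and 1.15 in WT (adjusted p = 0.252), so the call was lost in 3 of these 4 fits.

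Fn1, the fibronectin gene, varied widely within groups. It ranged from 4.7 to 297 CPM in KO ns with a median of 36.6, and from 19.3 to 280 CPM in KO LPS with a median of 218. The change in KO was 1.57 ± 0.643 (SE, edgeR adjusted p = 0.0686), which did not pass. It passed with the replicate block, at 1.97 (edgeR adjusted p = 0.00992), and with DESeq2, at 1.55 (adjusted p = 0.0231), and adjusted p ran from 0.00992 to 0.635 over all alternatives. The change was 0.47 within set 1 and 3.12 within set 2. In WT ns Fn1 ranged from 67.8 to 432 CPM with a median of 122, and in WT LPS from 29.3 to 419 CPM with a median of 196. The change in WT was 0.15 (adjusted p = 0.896). The difference of the response between genotypes, 1.43 ± 0.951 (SE), had an adjusted p of 0.772.

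Ly6c2, the classical monocyte surface marker, did not pass the test under LPS. It ranged from 3.07 to 105 CPM in KO ns with a median of 11.9, and from 16.9 to 39.4 CPM in KO LPS with a median of 28. In WT ns it ranged from 6.37 to 153 CPM with a median of 26.4, and in WT LPS from 24.6 to 212 CPM with a median of 36.4. The ranges overlapped in each genotype, and the log2 fold changes were -0.32 in KO and 0.02 in WT. Chil3 changed by 0.03 in KO and 0.23 in WT, and Plac8 by 0.22 and 0.52. S100a4 changed by -0.53 in KO and 0.44 in WT, and Lyz2 by -0.75 and -0.34. Ace, the gene that is higher in nonclassical monocytes, changed by -0.66 and -0.89. None of these 6 genes passed the test in either genotype. With all libraries as labelled, the WT values were 0.31 for Ly6c2, 0.26 for Chil3, 0.91 for Plac8, 0.93 for S100a4, 0.34 for Lyz2, -0.36 for Ace and 0.09 for Fn1, none of them called, and that of Lyz2 was on the other side of 0.

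**Figure D2:**
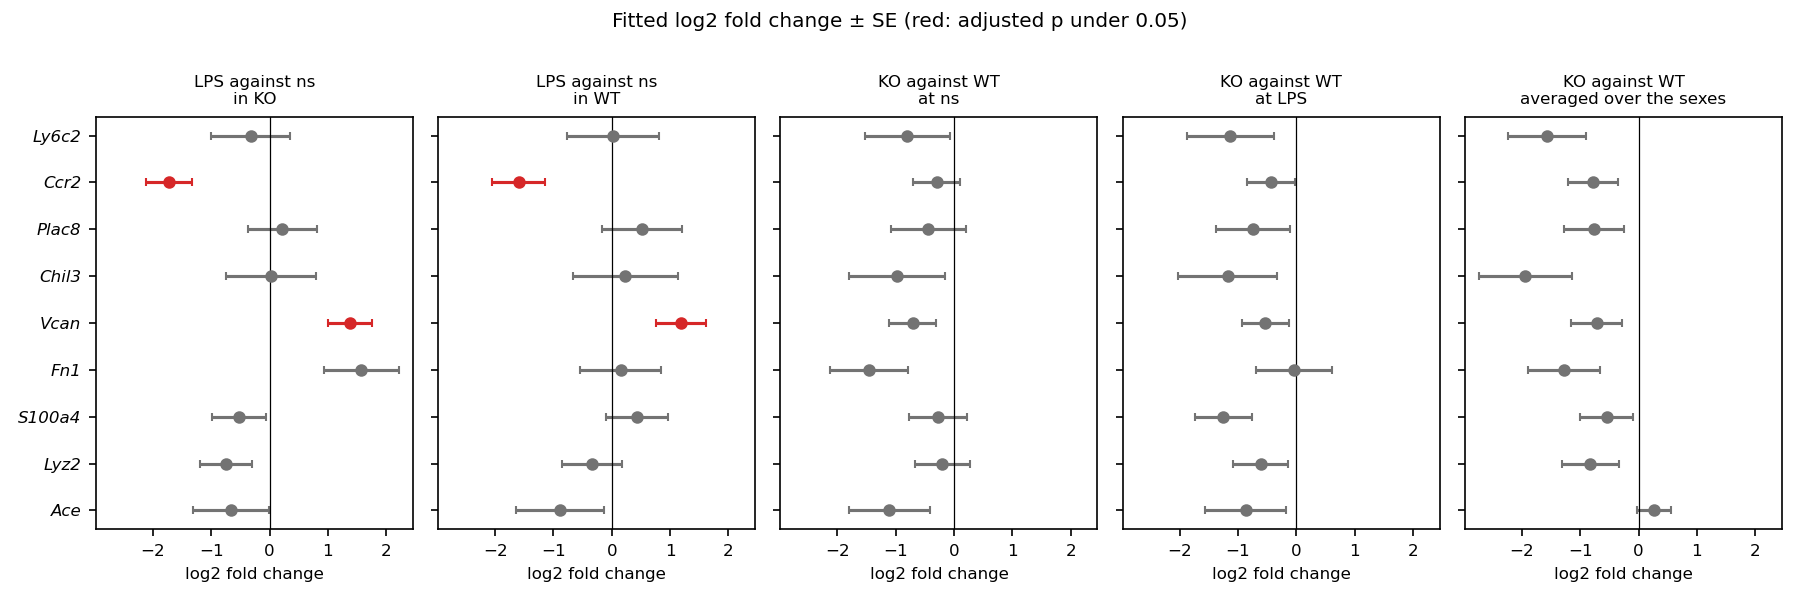
Fitted log2 fold changes (horizontal axis) of the 9 genes with bars of 1 standard error in 5 comparisons, 1 per panel, in red where the adjusted p is under 0.05 and grey elsewhere, the WT libraries of number 2 being left out of the LPS experiment. Ccr2 at -1.72 and -1.60 and Vcan at 1.38 and 1.19 under LPS are the red values, and none of the genotype values is red.

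Ccr2 and Ly6c2 are both genes of classical monocytes, and the ratio of their counts had a lower median under LPS. Other cells express some of these genes too, and the Pearson r of the 2 genes was 0.50 in the LPS experiment. The ratio can therefore not be read as that of 1 cell type. The ratio of Ccr2 to Ly6c2 counts was 1.15 to 8.09 in KO ns, with a median of 3.64, and 0.418 to 0.979 in KO LPS, with a median of 0.719. These groups did not overlap. In WT the ratio was 0.773 to 6.6 in ns, with a median of 2.21, and 0.222 to 0.913 in LPS, with a median of 0.546, and WT ns 8 at 0.773 lay below WT LPS 4 at 0.913. The libraries of number 2 labelled ns had ratios of 0.678 and 0.756, and those labelled LPS had 1.9 and 2.62. In the sex experiment the ratio was 0.846 to 3.76. The ratio was chosen after seeing the data and is a description with no test. It is not scaled to transcript length, so its size cannot be read. The transcript of Ccr2 has 5728 bases and that of Ly6c2 822. Long and short transcripts shifted apart in some libraries, as given below, and movement of the ratio there cannot be told apart from that shift. Of those libraries, KO ns 6 at 1.15 and WT LPS 7 at 0.222 had the lowest ratio of their groups. KO LPS 5 at 0.805 and the library labelled WT LPS 6 at 2.62 did not. The part of the shift in the ratio was not tested.

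**Figure D3:**
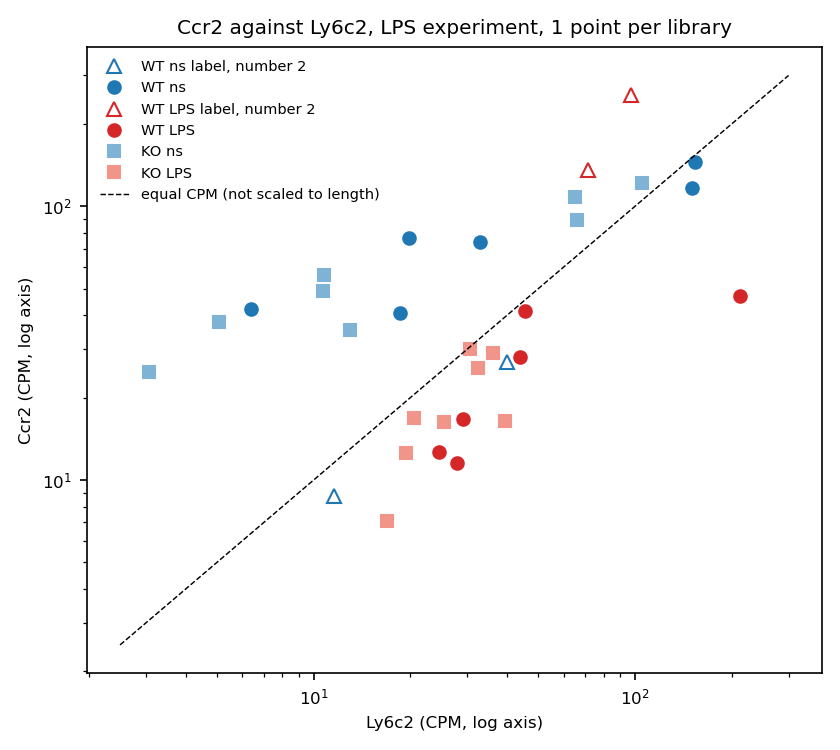
Ccr2 against Ly6c2 in CPM (both axes log), 1 point per library of the LPS experiment, with open triangles for WT libraries of number 2 and a dashed line at equal CPM that is not scaled to transcript length. All 8 KO LPS points have a ratio of at most 0.979 and all 8 KO ns points one of at least 1.15.

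Genes of other cells moved with Ccr2. Ccr2 is known in dendritic and lymphoid cells as well as monocytes, and in bulk samples fewer cells of a type and less RNA per cell cannot be told apart. The summed CPM of 8 dendritic markers was 1380 to 2270 in KO ns and 308 to 593 in KO LPS. Most of that sum was Siglech, a gene of microglia and plasmacytoid dendritic cells that is on the microglia list too, at 1330 to 2210 CPM in KO ns and 290 to 585 CPM in KO LPS. Without Siglech the other 7 markers summed to 28.8 to 61.5 CPM in KO ns and 8.28 to 17.8 CPM in KO LPS, and to 30 to 53.9 CPM in WT ns and 11.3 to 18.4 CPM in WT LPS. In KO 1 dendritic marker rose and 5 of 8 fell, Siglech among them. Cd209a, a lectin of monocyte-derived dendritic cells, changed by -7.46 ± 0.659 (SE) on the log2 scale and Clec9a, a dendritic cell receptor, by -3.64 ± 0.504. In WT the counts were again 1 and 5 of 8, with Cd209a at -5.20 and Clec9a at -3.33. The summed CPM of 7 B cell markers was 358 to 556 in KO ns and 141 to 236 in KO LPS. Of 6 tested B cell markers 3 fell in KO and 4 in WT, and of 6 tested T and NK cell markers 5 fell in KO and 1 in WT, with none higher. Of 10 microglia markers 6 fell in KO and 7 in WT, and their summed CPM was 33700 to 52700 in KO ns and 21200 to 27000 in KO LPS. The border macrophage list had 1 of 9 higher and 3 lower in each genotype. Of 12 neutrophil markers 1 rose in KO, the chemokine receptor gene Cxcr2 at 1.29, and 3 fell in WT, the granule genes Mpo at -5.68, Elane at -5.07 and Ltf at -3.34. The part of these cells in the fall of Ccr2 was not tested.

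Most ligand genes of CCR2 were higher under LPS. In KO 3 of 4 were called higher and 1 lower, with a list median of 2.91, where 14.4% of all genes were higher and 14.1% lower. Ccl2 changed by 4.13 ± 0.728 (SE, edgeR adjusted p = 8.66e-05), Ccl12 by 3.49 ± 0.747 and Ccl7 by 2.34 ± 0.731. Ccl8 was the member that fell, with a change of -1.97 ± 0.537. In WT the same 3 were higher, with Ccl2 at 5.53, Ccl12 at 5.13 and Ccl7 at 2.65, and Ccl8 at -0.99 did not pass. The receptor gene was therefore lower in the same libraries in which 3 of its ligand genes were higher.

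Other genes of classical monocytes mostly did not pass. In KO 3 of 18 were called higher and none lower, with a median of 0.41. These were Ms4a6c at 3.67 ± 0.319 (SE), Ms4a4c at 2.10 ± 0.479 and Tgfbi, a secreted matrix protein gene, at 1.65 ± 0.256. In WT 4 of 18 were higher, with Ms4a6c at 4.32, Ms4a4c at 2.68, Clec4e, a C-type lectin, at 1.83 and Tgfbi at 1.42. Of 10 other nonclassical genes 2 rose and 3 fell in KO, with Cd36, a fatty acid receptor gene, at -2.08 ± 0.36, Itgal, an integrin gene, at 1.19 ± 0.302 and the transcription factor gene Pou2f2 at 1.10 ± 0.41. In WT none of these 10 rose and 4 fell, with Cd36 at -1.94. Of 5 transcription factor genes of the monocyte lineage 2 rose and 1 fell in each genotype. Klf4, which is needed for monocytes, changed by 1.96 in KO and 2.07 in WT, Cebpb by 1.68 and 1.94, and Cebpa by -1.15 and -1.27. Spi1 and Irf8 were the remaining 2 of that list.

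Among relatives of the 9 genes, Ly6i, a neighbour of Ly6c2 in the Ly6 family, changed by 4.32 ± 0.508 (SE, edgeR adjusted p = 2.56e-07) in KO and by 5.19 ± 0.606 in WT. Ly6c1 changed by 2.16 and Ly6a by 2.28 in WT, where both were called, and by 1.60 and 1.10 in KO, where neither passed. Lyz1 fell in both, with -1.58 in KO and -1.71 in WT. Ly6i thus passed the test in the libraries in which Ly6c2 did not. All WT values of these lists come from the fit without the libraries of number 2, since no gene was called with them.

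In some libraries of set 2, genes with long and with short transcripts lay apart from their usual levels, and several of the 9 genes were at their extremes there. In WT LPS 7, the 2161 genes with transcripts of 5000 bases or more lay at a median of -0.80 log2 units from their median over libraries, and the 1285 genes under 1500 bases at 1.31. The same medians were -0.84 and 0.99 in KO ns 6 and -0.36 and 0.57 in KO LPS 5, and -0.72 and 0.75 in the library labelled WT LPS 6. In the library labelled WT ns 5 they were -0.09 and 0.30, and in all other libraries the short genes lay at 0.09 or less. Fn1, with a long transcript, had its lowest level among the fitted samples of its group in KO ns 6 (4.7 CPM), KO LPS 5 (19.3 CPM) and WT LPS 7 (29.3 CPM). Ace was lowest in the same 3 libraries, at 1.44, 1.11 and 1.06 CPM. Lyz2, with a short transcript, had its highest of its group there, at 3560, 1860 and 3570 CPM. Plac8 was highest in KO ns 6 at 141 CPM and WT LPS 7 at 202 CPM, and S100a4 was 25 CPM in KO ns 6. Ccr2 and Vcan have long transcripts as well, of 5728 and 12427 bases, and did not follow Fn1 in each of these libraries. Ccr2 was highest of its group in KO ns 6 (121 CPM) and WT LPS 7 (47.1 CPM). Vcan was 19.8 CPM in WT LPS 7, where only WT LPS 4 was higher in its group, at 23.3 CPM. In the library labelled WT LPS 6, Ccr2 was 255 CPM and Vcan 2.97 CPM. KO ns 5 had low Fn1 too, at 7.46 CPM, with medians of 0.04 and 0.09. The part of this shift in the levels of the 9 genes was not tested.

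**Figure D4:**
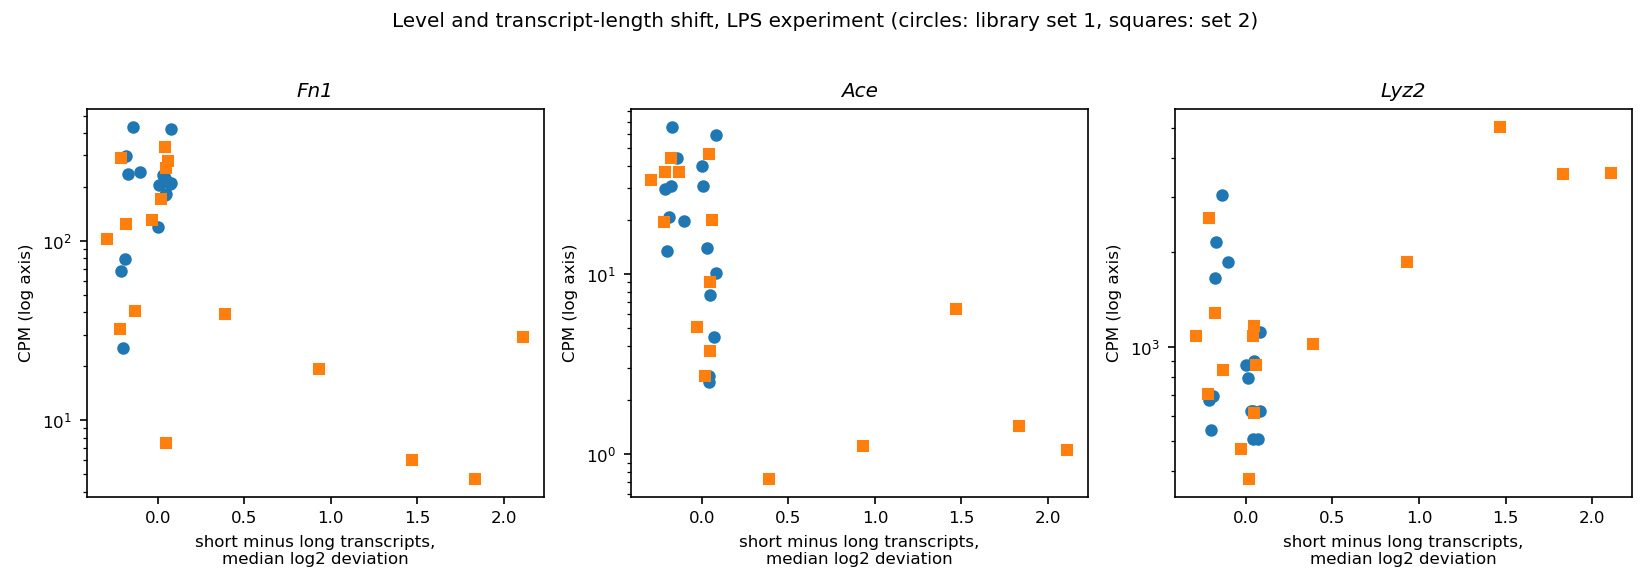
CPM of Fn1, Ace and Lyz2 (log axis) against the median log2 deviation of genes with short transcripts minus that of genes with long ones, 1 point per library of the LPS experiment, circles for library set 1 and squares for set 2. The 5 points farthest to the right are all of set 2, with Fn1 at 4.7 to 39 CPM and Ace at 0.729 to 6.42 CPM. The upper ends are near the median of Fn1 in KO ns, 36.6 CPM, and of Ace in WT LPS, 6.38 CPM. Of these 5 points, 3 have the highest Lyz2, 3560, 3570 and 5020 CPM.

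Without WT LPS 7, KO ns 6 and KO LPS 5, a fit chosen after seeing the data, Ccr2 stayed lower, at -1.67 in KO (edgeR adjusted p = 0.000839) and -1.90 in WT (adjusted p = 0.00117). Vcan was at 1.25 in KO (adjusted p = 0.0112) and at 0.98 in WT, where it no longer passed (adjusted p = 0.0689). Fn1 passed in KO, at 1.40 (adjusted p = 0.0436), and Lyz2 passed in WT, at -0.95 (adjusted p = 0.0441). Calls over all genes were 7753 in KO against 4587 with these libraries, and 7393 in WT against 4934. Ly6c2 was then at 0.22 in KO and -0.92 in WT, Chil3 at 0.90 and -0.87 and Plac8 at 0.74 and -0.13, all without a call, so the signs of Ly6c2 in both genotypes and of Chil3 and Plac8 in WT turned. Fn1 and Lyz2 thus change their side of the threshold with these 3 libraries.

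KO was compared with WT within each treatment, which asks whether loss of P2RY12 alters the genes. At ns none of the 9 was called, where 0.0932% of all genes were. All 9 log2 fold changes lay below 0, with a median of -0.71 against -0.04 over all genes. The values were -1.46 ± 0.676 (SE) for Fn1, -1.11 for Ace, -0.98 for Chil3, -0.80 for Ly6c2 and -0.71 for Vcan, and the remaining 4 lay between -0.44 and -0.20. Fn1 was the one gene of them below 0.05 before adjustment, and its adjusted p in the edgeR fit was 0.542. Genes over the whole table numbered 15 called and 1480 at an unadjusted p under 0.05, and DESeq2 called 50 genes and none of the 9. As labelled, 0.114% of all genes and none of the 9 were called. Without WT LPS 7, KO ns 6 and KO LPS 5, a fit chosen after seeing the data, none of the 9 and 42 of all genes were called. Chil3 was then at -1.97, Ly6c2 at -1.53, Plac8 at -1.25 and S100a4 at -0.82. Vcan was at -0.73, Lyz2 at -0.57 and Ccr2 at -0.54. These were larger in size than in the main fit, while Fn1 at -1.13 and Ace at -0.90 were smaller. Ly6c2 was highest in WT ns 3 and WT ns 8, and the summed CPM of 12 neutrophil markers was 19800 and 18400 there, against 1080 to 10400 in KO ns. The part of neutrophils in these values was not tested.

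Under LPS none of the 9 was called between genotypes, where 0.0746% of all genes were. All 9 again lay below 0, with a median of -0.74 against -0.03 over all genes. S100a4 was at -1.25 ± 0.496 (SE) with an adjusted p of 0.66 and was the one member with an unadjusted p under 0.05. It ranged from 2.44 to 9.14 CPM in KO LPS and from 4.34 to 24.3 CPM in WT LPS. Chil3 was at -1.18 and Ly6c2 at -1.13. Without WT LPS 7, KO ns 6 and KO LPS 5 these values were -0.19 and -0.40, while S100a4 was at -1.15. WT LPS 7 had 1930 CPM of Chil3 against 234 to 424 CPM in the rest of its group. Over all genes 12 were called and 1019 had an unadjusted p under 0.05, and DESeq2 called 57 genes and none of the 9. As labelled, 0.126% of all genes were called and none of the 9, with S100a4 at -1.60 (adjusted p = 0.256) and Ccr2 at -1.80 (adjusted p = 0.298). The comparisons at ns and at LPS share no library, but they come from 1 fit with a shared library set term and estimate of spread. Several of the 9 genes were correlated across libraries, so 9 values below 0 are not 9 separate observations. The difference of the LPS response between genotypes was called for none of the 9 and for 0% of all genes, also as labelled, with a lowest adjusted p of 0.772 among the 9. There 708 genes had an unadjusted p under 0.05 (1698 as labelled), and DESeq2 called 3 genes and none of the 9.

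In the sex experiment the spread of the genes lay mainly in 2 WT libraries. Ly6c2 was 13.1, 15.9, 42 and 275 CPM in male WT, and 6.42, 13.1, 16.5 and 152 CPM in female WT. It was 12, 16.9, 18.7, 20.2 and 20.3 CPM in male KO and 13, 18.6, 27.4, 30.7 and 41.1 CPM in female KO. The high values were male WT 5 and female WT 2, and without them the WT and KO libraries overlapped over most of their range. Chil3 was 65.4, 84.9, 345 and 2790 CPM in male WT and 36.8, 76.5, 126 and 1530 CPM in female WT, with the same libraries highest. It was 100 to 173 CPM in male KO and 95.9 to 318 CPM in female KO. Male WT 5 had the highest level of the whole experiment for 8 of the 9 genes, and female WT 2 the next highest. Ace was the exception, with 57.6 CPM in male WT 5 and 86.9 CPM in female WT 2.

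**Figure D5:**
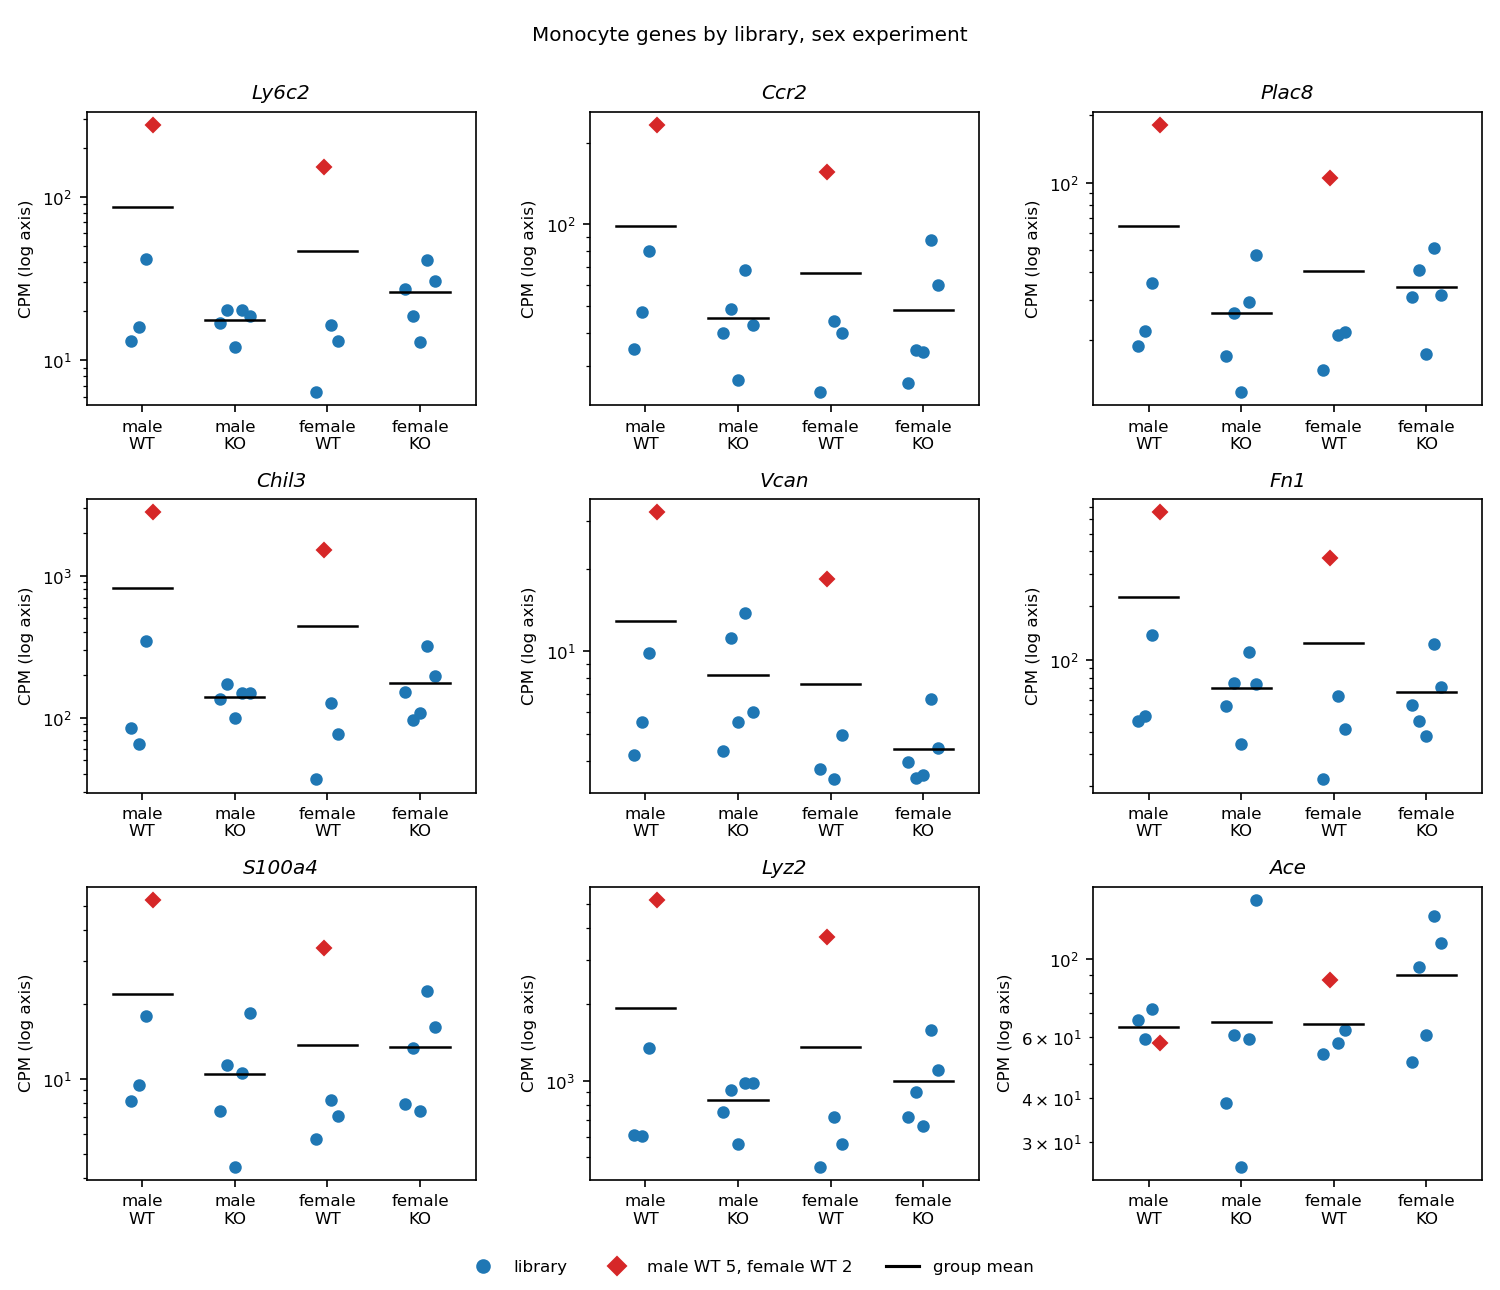
TMM-scaled CPM of the 9 genes (log axis) in each library of the sex experiment, with group means as lines and red diamonds for male WT 5 and female WT 2. The diamonds lie above all other libraries for every gene but Ace, as at 2790 and 1530 CPM for Chil3.

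Averaged over the sexes, KO against WT was called for none of the 9, where 0.432% of all genes were, and 8 of 9 lay below 0 with a median of -0.78. Chil3 was at -1.94 ± 0.79 (SE, edgeR adjusted p = 0.506), Ly6c2 at -1.57 ± 0.669 and Fn1 at -1.28 ± 0.611 (adjusted p = 0.566). Lyz2, Ccr2, Plac8, Vcan and S100a4 lay between -0.83 and -0.55, and Ace was at 0.26. Without male WT 5 and female WT 2, a fit chosen after seeing the data, all 9 lay above 0 and none was called. Chil3 was then at 0.44, Ly6c2 at 0.35, Fn1 at 0.25 and Ccr2 at 0.08. These were the WT libraries with the highest levels of 8 genes, so a move upwards was set by the choice. With either left out alone the 8 genes stayed below 0. Chil3 was at -0.79 and Ly6c2 at -0.63 without male WT 5, and at -0.71 and -0.58 without female WT 2. The sign of 8 genes therefore rested on these 2 libraries together. The 12 neutrophil markers summed to 50800 CPM in male WT 5 and 30200 CPM in female WT 2, against 1480 to 8590 CPM in the other 16 libraries, and their part was not tested. Over all genes 137 were called with them and 309 without them, 2860 had an unadjusted p under 0.05, and DESeq2 called 358 genes and none of the 9.

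Within males none of the 9 was called, where 0.00946% of all genes were, and within females none, where 0.164% were. Ly6c2 was at -2.29 ± 0.962 (SE) in males and -0.84 ± 0.94 in females, and Chil3 at -2.54 ± 1.14 and -1.34 ± 1.10. Without male WT 5 the male values were -0.43 for Ly6c2 and -0.23 for Chil3. Without female WT 2 the female values were 1.13 and 1.12. In males 3 genes were called, 2171 had an unadjusted p under 0.05 and DESeq2 called 27. In females the numbers were 52, 1655 and 210. The difference between the sexes in the genotype effect was called for none of the 9 and 0% of all genes, with 879 genes at an unadjusted p under 0.05 and 0 called by DESeq2. Females against males gave no call among the 9, where 0.861% of all genes were called, and Vcan had the lowest p, at -0.83 ± 0.447 (SE, edgeR adjusted p = 0.462). Of all genes 3926 had an unadjusted p under 0.05 there and DESeq2 called 754 genes.

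The genes other than Ace rose and fell together across the 18 libraries of the sex experiment. Their 28 pairs had a Pearson r of log2 CPM of 0.73 to 0.98 with a median of 0.91, and 0.32 to 0.93 with a median of 0.78 without male WT 5 and female WT 2. In the LPS experiment the same 28 pairs had an r of -0.33 to 0.95 with a median of 0.59 over 32 samples. It was 0.95 for Ly6c2 and Chil3, 0.91 for Ly6c2 and Plac8, 0.88 for S100a4 and Lyz2 and 0.86 for Ccr2 and Lyz2. It was 0.50 for Ly6c2 and Ccr2, 0.28 for Ccr2 and Chil3 and 0.14 for Ly6c2 and Fn1, and 5 pairs lay below 0, of which 4 held Fn1. All points of a table share library, depth and treatment, so these values describe the tables and carry no p.

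The gene most like each member in the sex experiment was found over all tested genes. It was Top2a, a gene of dividing cells, for Ly6c2 (r = 0.987) and Ngp, a granule gene of developing neutrophils, for Chil3 (r = 0.996). It was Plbd1 for Lyz2 (r = 0.992), Ifitm6 for Fn1 (r = 0.989) and Gvin3 for Ccr2 (r = 0.977). The predicted genes Gm15396, Gm36161 and Gm36462 were nearest to S100a4 (r = 0.988), Plac8 (r = 0.981) and Vcan (r = 0.95). Without male WT 5 and female WT 2, over 16 libraries, these values were 0.953 for Top2a, 0.984 for Ngp, 0.971 for Plbd1 and Ifitm6 and 0.959 for Gvin3. Ace was nearest to Gm11651 (r = 0.999), the gene that overlaps it.

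In the LPS experiment Anxa1, an annexin gene, was nearest to both Ly6c2 (r = 0.978) and Chil3 (r = 0.967) over 32 samples. Tmsb10 was nearest to Ccr2 (r = 0.967), Fanca to Fn1 (r = 0.956), S100a6 to Plac8 (r = 0.94) and Krt80 to Ace (r = 0.942). Sirpb1c was nearest to S100a4 (r = 0.935), Rgs18 to Lyz2 (r = 0.934) and B230303A05Rik to Vcan (r = 0.886).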

How the data were processed

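Polyadenylated RNA was sequenced on a NovaSeq instrument, per the labels' protocols. The authors deposited whole-number read counts per gene in 1 table for each experiment, not normalized. The submitters' processing notes name FastQC, STAR 2.6.1, featureCounts, Subread, DESeq2 and GRCm39, with no role or order. In the sex experiment the length given for each gene equals its whole span, and 78.4% to 87.7% of low counts were even, against 41% to 46.2% in the LPS experiment, so the tables were counted differently and were fitted separately. Column names gave the sample of each column, and 6 repeat libraries have no column of their own. Whether their reads are part of the columns of the same animals is not stated. Whether reads or read pairs were counted is not stated either, so depths of the sex experiment may count the mates of a pair separately.

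Counts were filtered with filterByExpr (31709 genes kept in the sex and 16088 in the LPS experiment), scaled by TMM and tested with edgeR 4.0.16 (quasi-likelihood F test, robust) in R 4.3.3. P-values were adjusted by Benjamini-Hochberg over all genes and called under 0.05. The model had group means, plus the library set as a covariate in the LPS experiment. The spread between samples of a group (biological coefficient of variation) came to 35.3% for the sex and 40.1% for the LPS experiment. The test was checked on simulated counts with the same spread for all genes, smaller than that found in the data. That check therefore does not give the power for the 9 genes. Alternatives were DESeq2 1.42.0, other scaling, filters, models and subsets of libraries. Genes named beyond the 9 were label checks, up to 4 called genes of a list with the largest change, relatives with shared sequence, and the gene most correlated with each member (log2 CPM, prior count 2). The members and lists were chosen with earlier results of these data known. Transcript lengths and coding sequences came from GENCODE. Some results on relatives of the 9 genes are not reported here.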

Additional observations from a re-analysis of the deposited data

Results flagged for a closer look

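Within groups of 4 to 10 libraries, the highest or lowest library was compared with the rest by the gap to its nearest neighbour over the range of the group (Dixon's criterion at 95%). Of 72 groups of a gene, 24 had a library apart, and they came from 7 libraries. The criterion flags about 1 in 20 by chance for independent groups of normally distributed values. These were unlogged CPM of correlated genes, so that rate does not hold here and the count is a description only.

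In male WT 5, Ly6c2 was 275 CPM against 13.1 to 42 CPM in the rest of its group, Plac8 181 CPM against 18.8 to 35.7 CPM, and Chil3 2790 CPM against 65.4 to 345 CPM. There, Fn1 was 656 CPM against 46 to 138 CPM, and Lyz2 5180 CPM against 606 to 1340 CPM. In female WT 2, Ly6c2 was 152 CPM against 6.42 to 16.5 CPM in the rest of its group, Ccr2 156 CPM against 24.2 to 44.1 CPM, and Plac8 105 CPM against 14.6 to 21.6 CPM. There, Chil3 was 1530 CPM against 36.8 to 126 CPM, Vcan 18.3 CPM against 3.42 to 4.95 CPM, and Fn1 367 CPM against 21.9 to 63.5 CPM. There, S100a4 was 33.8 CPM against 5.74 to 8.26 CPM, and Lyz2 3680 CPM against 458 to 718 CPM. In male KO 5, Ace was 147 CPM against 25.6 to 60.5 CPM in the rest of its group. In WT LPS 7, Ly6c2 was 212 CPM against 24.6 to 45.3 CPM in the rest of its group, Plac8 202 CPM against 19.1 to 75.6 CPM, and Chil3 1930 CPM against 234 to 424 CPM. There, Lyz2 was 3570 CPM against 472 to 1110 CPM. In KO ns 6, Plac8 was 141 CPM against 6.36 to 45 CPM in the rest of its group, S100a4 25 CPM against 2.04 to 10.1 CPM, and Lyz2 3560 CPM against 542 to 1860 CPM. In KO LPS 1, Chil3 was 520 CPM against 115 to 246 CPM in the rest of its group. In KO LPS 5, Fn1 was 19.3 CPM against 172 to 280 CPM in the rest of its group, and Lyz2 1860 CPM against 378 to 875 CPM.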

How the results depend on the processing

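Each value was recomputed under 24 alternatives for the sex and 40 for the LPS experiment. Of the fold changes of single genes, 2687 kept their direction and their side of the threshold, 167 without a call changed sign, 18 lost and 7 gained a call, and 1 with a call reversed. That reversal was Ccr2 under LPS in WT with all libraries as labelled, at 0.03. Genotype and sex comparisons gave 0 called members under every alternative run.

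For LPS in KO, 2 members were called, against 1 with library set 1 alone and 1 with library set 2 alone, both fits with fewer samples. For LPS in WT, 2 were called, against 1 without the low-count filter, 1 with a filter at a mean of 5 CPM, 1 without libraries of number 2 in any group, 0 as labelled, 0 with set 1 alone and 0 with set 2 alone. Leaving out each library in turn gave 1 to 2 in WT and 2 to 3 in KO. Ccr2 was called in all 28 such fits in each genotype, and Vcan in 28 in KO and 21 in WT. The cause of the other changes was not tested.

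Same-numbered libraries were not treated as pairs, since not every pair deviated together. Their deviations correlated with a mean r of 0.126 over 8 pairs of the sex experiment, 5 of them over 0.1, against -0.0296 over 32 other pairs, 7 of them over 0.1. Over 35 pairs of the LPS experiment it averaged 0.0793, with 12 over 0.1, against -0.0134 over 111 other pairs, 34 of them over 0.1. With the replicate block 3 members were called for LPS in KO, with Fn1 at 1.97 (adjusted p = 0.00992, and 0.00992 to 0.635 over all alternatives), Ccr2 at -1.65 and Vcan at 1.49, and 2 in WT. With DESeq2, Fn1 in KO was at 1.55 (adjusted p = 0.0231).

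Calls over all genes ranged from 721 to 7753 for LPS in KO (4587 as reported), 0 to 7393 in WT (4934), 1 to 50 for KO against WT at ns (15), 0 to 57 at LPS (12) and 0 to 3 for the interaction (0). In the sex experiment they ranged from 54 to 358 for KO against WT (137), 3 to 27 in males (3), 5 to 210 in females (52) and 99 to 754 for females against males (273). Depth limits low values in the LPS experiment, where the lowest library had 15 counts of Ace, 27 of Vcan and 42 of S100a4.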
